A study of Mus musculus with 24 samples.

Results

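The genes described here handle the amino acid arginine: 10 genes, chosen by symbol, out of the 23307 gene symbols in each of 2 expression tables. They are the arginases Arg1 and Arg2, the inducible nitric oxide synthase Nos2, the arginine importers Slc7a1 and Slc7a2, the enzymes that rebuild arginine from citrulline (Ass1 and Asl), and 3 genes of polyamine metabolism downstream of ornithine (Odc1, Srm and Sat1). All 10 had a row in both tables.

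Arginase and nitric oxide synthase draw on the same substrate. Arginase splits arginine into urea and ornithine, and ornithine feeds polyamines and proline, whereas Nos2 turns arginine into nitric oxide and citrulline, from which argininosuccinate synthase and argininosuccinate lyase can make arginine again. In mouse macrophages, interleukin 4 (IL4) is known for inducing Arg1 through the transcription factor STAT6, and bacterial products with interferon gamma for inducing Nos2. Tet2 is a dioxygenase that oxidises 5-methylcytosine in DNA to 5-hydroxymethylcytosine.

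The study measured RNA in C57BL/6 macrophages that were wild type or labelled as Tet2 knockout. Bone marrow-derived macrophages (BMDM), cultured for 7 days, were left untreated or given 20 ng/ml IL4 for 10 or 24 h, with 2 libraries in each of 6 groups, which the submitters call biological replicates. How the BMDM knockout allele was made is not given in the sources used here. Tumour-associated macrophages (TAM) were CD11b+ F4/80+ cells sorted 4 weeks after subcutaneous injection of YUMM1.7 cells, a mouse melanoma line. In the tumour experiment both groups carried floxed Tet2: the wild-type mice were LysMcre wt/wt Tet2 fl/fl and the labelled knockout mice LysMcre +/wt Tet2 fl/fl, with 4 libraries each. The LysM promoter is active across myeloid cells, neutrophils among them. The labels give male mice aged 6 to 8 weeks and do not say that each tumour library came from a separate mouse, so p-values there measure the spread between libraries. The 4 DNA libraries of the series were not analysed here.

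Values are FPKM, fragments scaled to transcript length and to the total mapped, so levels can be set against each other between genes of a library. Comparisons between libraries also depend on the scaling, for which alternatives were run. Differences are on the log2(FPKM + 1) scale with their standard error, and a gene was called at an adjusted p under 0.05 (limma, Benjamini-Hochberg over all genes tested). The added 1 understates changes of low genes: with 0.1 in its place, the wild-type change at 10 h of IL4 was 1.53 in place of 0.79 for Slc7a1 and 1.39 in place of 0.68 for Ass1. In BMDM, 9 of the 10 genes were tested, since Arg2 reached 1 FPKM in no library, and in TAM all 10. The tables come from different library preparations (ribosomal RNA depletion in BMDM, polyA selection in TAM), so their levels are not compared directly. These are bulk samples, in which fewer cells of a type and less RNA per cell cannot be told apart.

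Total FPKM ran from 365118 to 557183 in BMDM and from 337994 to 464812 in TAM, and read depth is unknown. All 8 macrophage markers found in the tables were at 1 FPKM or more in every library. Tet2 itself was at 4.11 and 5.91 FPKM in untreated wild-type BMDM and at 4.02 and 4.48 in the labelled knockout, at 8.74 and 8.81 against 7.22 and 8.19 after 10 h of IL4, and after 24 h at 9.38 and 9.82 against 11.3 and 10.3. In TAM, Tet2 was at 7.75 to 16.1 FPKM in wild type and 14.4 to 19.0 in the labelled knockout. Tet2 passed the test in none of the 4 genotype comparisons (limma, adjusted p from 0.418 to 0.837), so its gene-level FPKM does not mark the labelled knockout libraries. Among the TAM libraries, 7 of 8 held Xist at 62.4 to 128 FPKM with Y-linked genes summing to at most 0.539, which goes against the label of male mice. The remaining one, wild-type library 8, held Xist at 0.414 and Y-linked genes at 50.0, and correlated least with the other libraries. Labelled knockout library 5 listed 11137 genes at 0 against 8500 to 9294 in the others and had the coarsest low values. TAM results are given with and without these 2 libraries where they depend on them. The labelled knockout TAM libraries formed 2 pairs by correlation. Libraries 3 and 4 had r = 0.984 and libraries 5 and 6 had r = 0.959, against 0.927 to 0.952 across the pairs. What sets the pairs apart was not tested.

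Promoter sequence could be matched for 4 of the 10 genes (Ass1, Slc7a1, Odc1 and Sat1) in RefSeq, build GRCm38.p6. The 2 shown belong to Ass1 and Slc7a1, the genes of the set that were higher in labelled knockout BMDM after 24 h of IL4, and cover the 250 bases before the start, 5′ to 3′ on the gene's strand. Ass1 lies on the plus strand at chr2:31470020-31470269, and its capitals mark CACGTG, the E-box, 36 to 31 bases before the start. Slc7a1, shown for the first of its 2 listed starts, lies on the minus strand at chr5:148399905-148400154, and its capitals mark a match to TGANTCA, the AP-1 motif, 123 to 117 bases before the start.
Ass1: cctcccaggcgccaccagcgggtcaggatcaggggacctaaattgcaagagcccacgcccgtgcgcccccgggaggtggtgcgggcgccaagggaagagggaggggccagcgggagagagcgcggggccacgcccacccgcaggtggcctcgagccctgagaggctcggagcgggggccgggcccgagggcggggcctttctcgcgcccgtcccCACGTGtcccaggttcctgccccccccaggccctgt
Slc7a1: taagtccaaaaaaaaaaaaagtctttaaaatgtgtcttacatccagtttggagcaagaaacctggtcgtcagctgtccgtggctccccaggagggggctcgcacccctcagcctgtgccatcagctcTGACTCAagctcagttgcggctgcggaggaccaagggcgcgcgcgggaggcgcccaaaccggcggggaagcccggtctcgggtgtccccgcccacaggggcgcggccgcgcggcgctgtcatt
Of 32851 windows of this length, 6.02% held CACGTG and 6.75% held TGANTCA on either strand. The other motifs searched on both strands were the STAT6 motif (TTC, then 4 free bases, then GAA), TTCNNNGAA, TGATGNAA, TTGCNNAA, the kappa B motif and TGACGTCA, with 0 overlapping matches. The STAT6 motif is held by 5.85% of all windows and by 0 of the 5 windows of these genes. The window at the other Slc7a1 start holds TTCNNNGAA, found in 7.02% of all windows. A match describes letters in a window, not a bound site.

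Arg1 rose with IL4 in both genotypes, while Arg2 stayed low. Arg1, the cytosolic arginase, was at 1.38 and 1.03 FPKM in untreated wild-type BMDM, at 186 and 159 after 10 h and at 1065 and 991 after 24 h. In the labelled knockout the same times gave 1.63 and 1.45, then 71.7 and 79.6, then 373 and 417 FPKM. The 6 groups order as wild type at 24 h, labelled knockout at 24 h, wild type at 10 h, labelled knockout at 10 h, and then the untreated groups, which lie next to each other. All neighbouring groups in that order were separated without overlap, but the untreated genotypes differed by only 0.21 ± 0.12, which did not pass (limma, adjusted p = 0.471).

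Most of the fold change of Arg1 fell in the first 10 h, yet it went on rising. Between 10 and 24 h it rose by 2.57 ± 0.12 in wild type and 2.37 ± 0.12 in the labelled knockout (limma, adjusted p = 1.46e-06 and 2.02e-06). The labelled knockout mean was 43.8% of the wild-type mean at 10 h and 38.5% at 24 h. The difference in IL4 response between the genotypes was tested as an interaction and came to −1.39 ± 0.17 at 10 h and −1.59 ± 0.17 at 24 h (limma, adjusted p = 0.0113 and 0.0034). Arg1 was the 1 gene of the 9 tested to pass at either time, against 0.0951% of all genes tested at 10 h and 0.295% at 24 h. The 10 h interaction missed the threshold in 6 of 8 fits with 1 library left out, at adjusted p up to 0.0940, and the 24 h one passed in all 8.

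Arg2, the mitochondrial arginase, stayed under 1 FPKM in all 12 BMDM libraries. It was at 0.836 and 0.728 FPKM in untreated wild type, 0.573 and 0.682 at 10 h and 0.457 and 0.701 at 24 h. The labelled knockout gave 0.999 and 0.695, then 0.559 and 0.460, then 0.725 and 0.743 FPKM. Within these low values the genotypes overlapped in untreated cells. After IL4 every library therefore held far more Arg1 than Arg2.

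**Figure D1:**
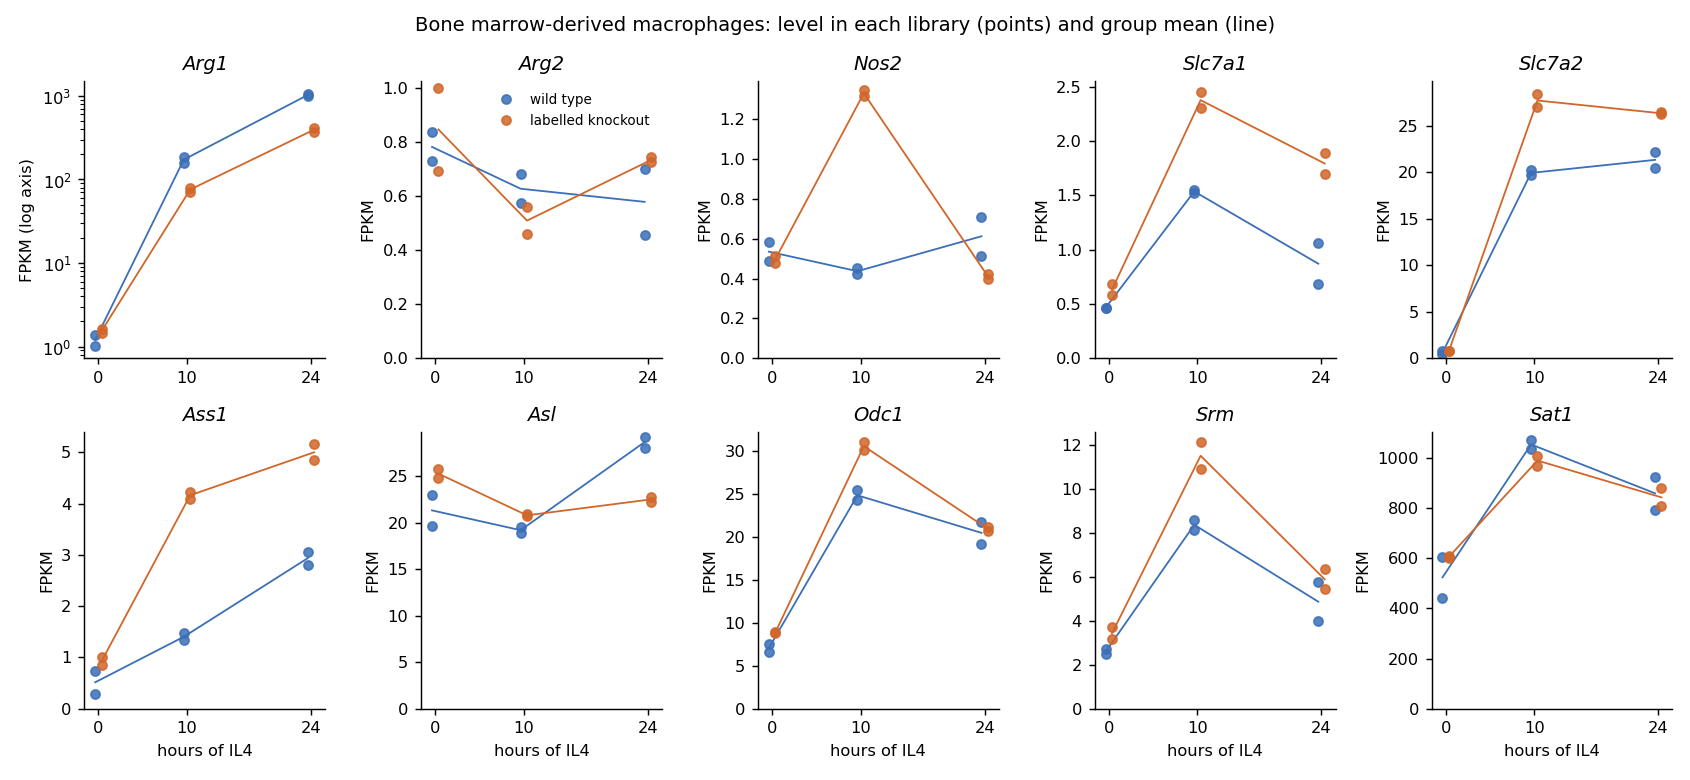
Level of each gene in FPKM (vertical axis, log for Arg1, linear from 0 for the others) against hours of IL4 in BMDM; each point is 1 library and the lines join group means. Arg1 climbs from about 1 FPKM to 1065 in wild type, the 2 labelled knockout libraries at 10 h stand apart for Nos2 at 1.32 and 1.35, and Ass1 lies higher in the labelled knockout at each time.

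Nos2 was low throughout the BMDM. Wild-type libraries held 0.584 and 0.486 FPKM untreated, 0.422 and 0.451 at 10 h and 0.514 and 0.711 at 24 h. The labelled knockout held 0.480 and 0.513 untreated, 1.35 and 1.32 at 10 h, and 0.399 and 0.424 at 24 h. The 2 labelled knockout libraries at 10 h were the highest of the 12, and the only ones at 1 FPKM or more.

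Nos2 passed the filter on low values through those 2 libraries alone, so it had to differ there. In the labelled knockout it was higher at 10 h than before IL4 by 0.64 ± 0.10 and fell again by 0.72 by 24 h (limma, adjusted p = 4.64e-04 and 4.5e-04). At 10 h its mean was 3.05-fold that of wild type. The genotype difference at that time also passed when no gene was filtered (limma, adjusted p = 0.00168). The interaction at 10 h, 0.73 ± 0.14, did not pass (limma, adjusted p = 0.165), but did without the filter (adjusted p = 0.0283).

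Because both enzymes use arginine, the ratio of their transcripts was taken within each library. Arg1 over Nos2 was 2.36 and 2.12 in untreated wild-type BMDM and 3.39 and 2.84 in the labelled knockout. After 10 h of IL4 it was 441 and 352 in wild type against 53.3 and 60.5 in the labelled knockout, and after 24 h it was 2073 and 1393 against 935 and 984. At 10 h the genotypes were furthest apart in this ratio, since Arg1 was lower and Nos2 higher in the same labelled knockout libraries. The wild-type mean of Arg1 was 2.28-fold that of the labelled knockout, and the Nos2 mean was 3.05-fold in the other direction. Nos2, at 0.399 to 1.35 FPKM over all BMDM libraries, passed the filter through those 10 h libraries. The width of this gap is therefore a description and not a separate genotype result. By 24 h the labelled knockout libraries no longer stood above the wild-type ones for Nos2.

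The arginine importers rose with IL4 in both genotypes. Slc7a2, the inducible cationic amino acid transporter of macrophages, was at 0.716 and 0.449 FPKM in untreated wild type, 20.2 and 19.7 at 10 h and 20.4 and 22.2 at 24 h. Labelled knockout libraries held 0.785 and 0.729, then 27.0 and 28.4, then 26.2 and 26.5 FPKM. Its rise in wild type was 3.73 ± 0.10 at 10 h and 3.82 ± 0.10 at 24 h (limma, adjusted p = 2.08e-09 and 8.21e-10). From 10 to 24 h Slc7a2 differed by 0.09 in wild type and −0.07 in the labelled knockout, which did not pass (limma, adjusted p = 0.529 and 0.652).

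Slc7a2 was higher in the labelled knockout than in wild type at 10 h by 0.46 ± 0.10 (limma, adjusted p = 0.0331). At 24 h the groups again did not overlap, but the difference of 0.29 ± 0.10 did not pass (adjusted p = 0.0944). The 10 h call was lost with a pseudocount of 0.1 (limma, adjusted p = 0.214), with the replicate number as a block (0.0569) and in each fit with 1 library left out (0.148 to 0.279).

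Slc7a1, the more widely expressed cationic amino acid transporter, was low and peaked at 10 h. Wild-type libraries held 0.464 and 0.466 FPKM untreated, 1.52 and 1.55 at 10 h and 0.683 and 1.06 at 24 h. In the labelled knockout the values were 0.578 and 0.684, then 2.45 and 2.30, then 1.70 and 1.89 FPKM. The labelled knockout libraries lay above the wild-type ones at every time. In wild type Slc7a1 rose by 0.79 ± 0.11 at 10 h and then fell by 0.45 between 10 and 24 h (limma, adjusted p = 2.47e-04 and 0.0136). Its rise over untreated cells at 24 h was 0.34 ± 0.11 (adjusted p = 0.0229). That rise and the fall from 10 h each missed the threshold in 3 of 4 fits with 1 library left out (adjusted p up to 0.146 for the rise and 0.0814 for the fall, whose value without the first 24 h library was −0.30), and on the compared libraries alone (0.0940 and 0.0838). At 24 h the labelled knockout was higher by 0.59 ± 0.11, a 2.06-fold difference of means (limma, adjusted p = 0.0126), a call lost without either labelled knockout library of that time (adjusted p = 0.0614 and 0.101) and on the compared libraries alone (0.156).

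Slc7a2 and Slc7a1 were at similar levels before IL4. After 10 h Slc7a2 exceeded Slc7a1 by 12.7 to 13.3 times in wild type and by 11.0 to 12.4 times in the labelled knockout. After 24 h the ratio was 21.1 to 29.9 in wild type and 14.0 to 15.5 in the labelled knockout, where Slc7a1 was higher.

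The citrulline route divided between its enzymes. Ass1, argininosuccinate synthase and the limiting step of the route, was at 0.744 and 0.289 FPKM in untreated wild type, 1.47 and 1.33 at 10 h and 2.81 and 3.07 at 24 h. The labelled knockout libraries were at 1.00 and 0.849, then 4.22 and 4.10, then 4.84 and 5.16 FPKM. The labelled knockout had the higher Ass1 at each time with no overlap, and its 10 h libraries already exceeded the wild-type ones at 24 h.

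Ass1 rose with IL4 by 0.68 ± 0.13 at 10 h and 1.39 ± 0.13 at 24 h in wild type, and by 1.42 ± 0.13 and 1.64 ± 0.13 in the labelled knockout (limma, adjusted p at most 0.00206). The genotypes differed by 1.10 ± 0.13 at 10 h, or 2.96-fold in the means, and by 0.61 ± 0.13 at 24 h, or 1.70-fold (limma, adjusted p = 0.00119 and 0.0223). The difference between the 2 IL4 responses at 10 h, 0.74 ± 0.19, did not pass (limma, adjusted p = 0.551). The 24 h genotype call was lost with a pseudocount of 0.1 (adjusted p = 0.131), without the filter (0.0542), on the compared libraries alone (0.117) and in 3 of 4 fits with 1 library left out.

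Asl, argininosuccinate lyase, was already abundant and moved little. It was at 23.0 and 19.7 FPKM in untreated wild type, 19.6 and 18.8 at 10 h and 28.1 and 29.3 at 24 h. The labelled knockout held 24.8 and 25.7, then 20.7 and 20.9, then 22.2 and 22.8 FPKM. At 24 h the wild-type libraries were the highest of all 12. At 10 h the labelled knockout was below its untreated level (−0.27 ± 0.09, limma, adjusted p = 0.041), a call lost in all 4 fits with 1 library left out and with the replicate number as a block (adjusted p = 0.0602). Asl rose by 0.41 ± 0.09 at 24 h in wild type (limma, adjusted p = 0.00403), which came to 0.21 with quantile scaling (adjusted p = 0.023) and did not pass on the compared libraries alone (adjusted p = 0.132), while in the labelled knockout it stood at −0.16 relative to untreated (adjusted p = 0.189). The difference between these responses, −0.57 ± 0.13, did not pass (limma, adjusted p = 0.0884), but passed with median-of-ratios scaling (adjusted p = 0.0338), with quantile scaling (0.0409) and without the first untreated wild-type library (−0.68, 0.0100). The genotype difference at 24 h, −0.34 ± 0.09, did not pass (limma, adjusted p = 0.0545), but passed under median-of-ratios scaling at −0.39 (adjusted p = 0.0102), quantile scaling (0.0142) and without the filter (0.0464).

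The 3 polyamine genes had their highest values at 10 h. Odc1, ornithine decarboxylase, takes ornithine into putrescine, and was at 7.48 and 6.62 FPKM in untreated wild type, 25.4 and 24.3 at 10 h and 19.2 and 21.8 at 24 h. Labelled knockout libraries held 8.80 and 8.90, then 31.0 and 30.1, then 21.1 and 20.7 FPKM. Odc1 rose at 10 h by 1.68 ± 0.09 in each genotype (limma, adjusted p = 4.6e-07 and 4.38e-07), with an interaction of 0.00. From 10 to 24 h it fell by 0.52 in the labelled knockout (adjusted p = 0.00258), against −0.27 ± 0.09 in wild type, which did not pass (adjusted p = 0.0573).

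Srm, spermidine synthase, was at 2.71 and 2.47 FPKM in untreated wild type, 8.12 and 8.60 at 10 h and 3.98 and 5.74 at 24 h. In the labelled knockout the values were 3.15 and 3.72, then 12.1 and 10.9, then 5.44 and 6.33 FPKM. In both genotypes the 10 h libraries were highest and the 24 h ones lay between them and the untreated ones. The fall from 10 to 24 h passed in wild type and in the labelled knockout (by 0.69 and by 0.86, limma, adjusted p = 0.00548 and 0.00155), the first not on the compared libraries alone (adjusted p = 0.0682).

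Sat1, which acetylates spermidine and spermine for export or breakdown, was the most abundant gene of the set before IL4. It was at 604 and 443 FPKM in untreated wild type, 1073 and 1034 at 10 h and 923 and 794 at 24 h. The labelled knockout libraries were at 608 and 602, then 1009 and 969, then 807 and 878 FPKM. Sat1 rose by 1.02 ± 0.16 at 10 h in wild type and by 0.71 ± 0.16 in the labelled knockout (limma, adjusted p = 4.65e-04 and 0.00461). At 24 h its rise was 0.73 ± 0.16 and 0.48 ± 0.16 (adjusted p = 0.00313 and 0.0299), but with quantile scaling the wild-type value was 0.08 (adjusted p = 0.484), and on the compared libraries alone it did not pass (adjusted p = 0.0813). The labelled knockout call at 24 h was lost in all 4 fits with 1 library left out and without the filter (adjusted p = 0.0703). Odc1, Srm and Sat1 passed the genotype test at none of the 3 times.

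Across the set, 7 genes rose and 0 fell at 10 h of IL4 in wild type, where 42.4% of all genes tested were called, and 8 rose and 0 fell at 24 h, where 50.0% were. In the labelled knockout 8 rose and 1 fell at 10 h (38.8% of all genes called), and 7 rose and 0 fell at 24 h (43.7%). The median change of the 9 genes was 1.02 at 10 h in wild type and 1.42 in the labelled knockout, beside 0.0945 and 0.0609 over all genes tested. From 10 to 24 h, 3 rose and 2 fell in wild type (25.9% of all genes called), and 1 rose and 3 fell in the labelled knockout (23.0%). From 10 to 24 h Arg1 thus rose in both genotypes, Srm fell in both, and Slc7a2 passed in neither. Several of the 9 (Nos2, Slc7a1, Slc7a2 and Ass1) passed the filter only through groups in which they were high. Nos2 is 1 of the 8 that rose at 10 h in the labelled knockout. Arg2, whose means did not rise with IL4, was left out by the same filter. The counts and medians against untreated cells thus lean toward a rise by construction.

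**Figure D2:**
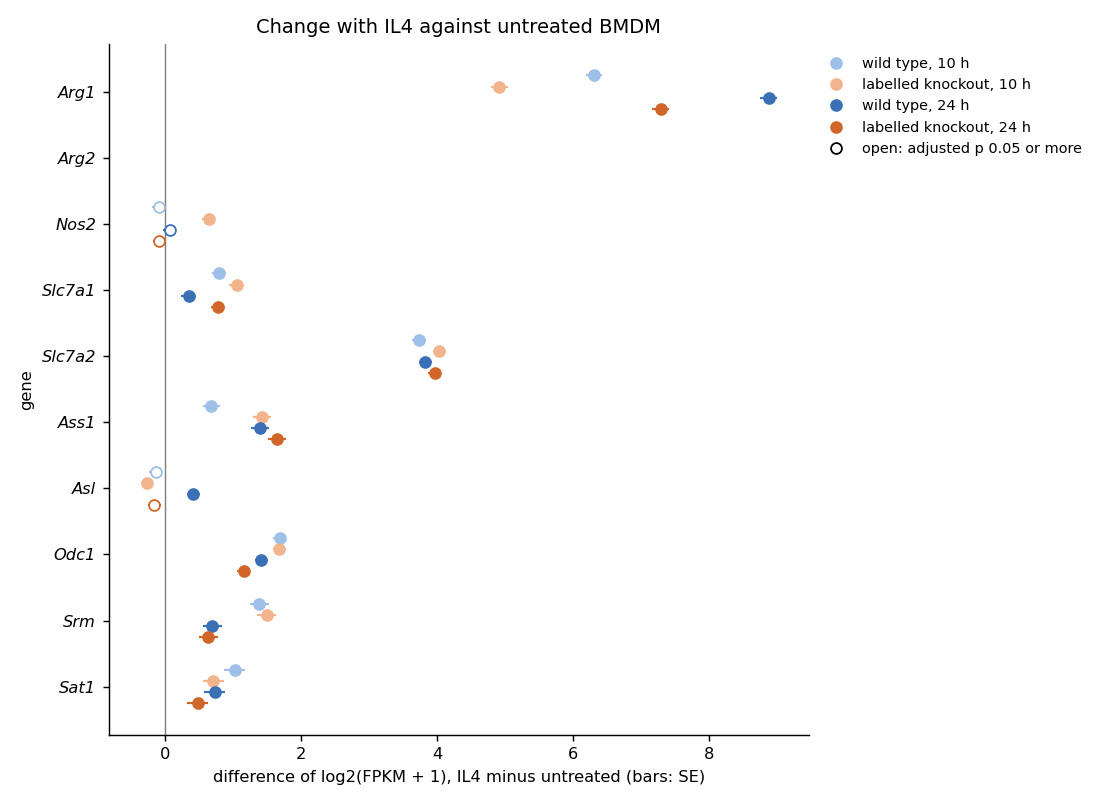
Difference of log2(FPKM + 1) between IL4-treated and untreated BMDM (horizontal axis, with SE bars) for each gene (vertical axis), by genotype and time; open circles had an adjusted p of 0.05 or more, and Arg2 was not tested. Arg1 and Slc7a2 lie farthest right, and Arg1 is the gene in which the genotypes are farthest apart.

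Between genotypes, 0 of the 9 genes passed in untreated BMDM, where 2.70% of all genes tested did (limma). At 10 h Ass1 and Slc7a2 were higher in the labelled knockout and Arg1 lower, beside 2.84% of all genes called. Nos2 also passed, but is left out of this reading because the filter let it in through the labelled knockout libraries of that time. At 24 h Ass1 and Slc7a1 were higher and Arg1 lower, beside 7.43%. All labelled knockout values lay on 1 side of the wild-type ones at 24 h for 6 of the 9, beside 50.5% of all genes. Fitted on the libraries of the 24 h comparison alone, none of the 9 passed, and Arg1 had an adjusted p of 0.0743. In untreated cells 7 of the 9 had all labelled knockout values above all wild-type values, a separation seen for 42.5% of all genes in either direction. Without the first wild-type untreated library, the differences in untreated cells were 0.58 for Ass1, 0.35 for Asl, 0.37 for Odc1 and 0.45 for Sat1. Without the second they were 0.14, 0.13, 0.22 and 0.002, and each of these fits left 1 library in that group.

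Markers of other cells moved with genotype in BMDM. Fibroblast markers summed to 4.48 to 4.82 FPKM in untreated wild type and to 21.0 to 22.9 in the labelled knockout, and at 24 h to 2.41 to 2.43 against 9.24 to 9.43, with 3 of 3 tested markers higher at each time. Proliferation markers summed to 21.5 to 21.8 FPKM against 41.0 to 43.5 at 24 h, with 5 of 6 higher. Macrophage markers summed to 9743 to 11376 FPKM in wild type and to 7312 to 7375 in the labelled knockout at 24 h, with 3 of 8 lower and 5 not passing. That sum was mostly made of other genes than Cd68, Csf1r, Emr1 and Itgam. At 24 h the genotypes overlapped for Cd68 (254 to 317 FPKM in wild type against 264 to 279) and Csf1r (433 to 576 against 423 to 437). They also overlapped for Emr1 (383 to 426 against 421 to 446), but not for Itgam (53.3 to 58.3 against 41.4 to 43.4). The part of these markers in the results for Arg1, Ass1 and the importers was not tested.

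Other genes of arginine use were taken as 6 lists with 54 symbols, of which 53 were in the tables and 39 were tested in BMDM. The alternative fits were read for the arginine set alone, so calls of genes in these lists were not checked by them. With IL4, 16 rose and 4 fell at 10 h in wild type (51.3% of those tested, beside 42.4% of all genes) and 17 rose and 8 fell at 24 h (64.1%, beside 50.0%). Between genotypes, 2 of 39 passed untreated (5.13%, beside 2.70% of all genes), 0 at 10 h (beside 2.84%) and 3 at 24 h (7.69%, beside 7.43%). Of the list for ornithine use in proline and glutamate, 5 of 6 genes tested rose at 24 h in wild type and 4 of 6 in the labelled knockout, with 0 falling, beside 50.0% and 43.7% of all genes called. Aldh18a1, which starts proline synthesis from glutamate, went from 1.13 to 3.18 FPKM in wild type, a rise of 0.97 ± 0.10 (limma, adjusted p = 2.11e-05). Oat, ornithine aminotransferase, went from 33.1 to 59.4 FPKM, a rise of 0.84 ± 0.13 (adjusted p = 4.26e-04).

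Creatine synthesis also uses arginine, through Gatm, the arginine:glycine amidinotransferase. Gatm rose from 17.6 to 50.1 FPKM at 24 h in wild type, by 1.46 ± 0.10, and reached 74.8 in the labelled knockout, 0.57 ± 0.10 above wild type (limma, adjusted p = 1.06e-06 and 0.00875). In the urea cycle, Otc was at 0 in all 12 BMDM libraries. Of the rest of the urea cycle, agmatine and creatine list, 3 of 4 genes tested rose and 1 fell at 24 h in wild type. Of all genes tested, 50.0% were called there.

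Of the transport list, 1 of 6 genes tested rose and 3 fell at 24 h in each genotype, beside 50.0% and 43.7% of all genes called. Slc7a7, which exports cationic amino acids with its partner Slc3a2, fell from 10.3 to 2.90 FPKM in wild type, by 1.55 (limma, adjusted p = 2.42e-05). It was also lower in untreated labelled knockout cells, at 5.65 FPKM, by 0.76 (adjusted p = 0.0319).

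Of the polyamine list, 4 of 12 genes tested rose and 3 fell at 24 h in each genotype. Of all genes tested, 50.0% were called at that time in wild type and 43.7% in the labelled knockout. Azin1, the antizyme inhibitor that protects ornithine decarboxylase, was higher in the labelled knockout in untreated cells (24.4 against 16.2 FPKM) and at 24 h (30.2 against 18.6), by 0.57 ± 0.12 and 0.67 ± 0.12 (limma, adjusted p = 0.0303 and 0.0102). Its relative Azin2, listed under its older symbol Adc, rose with IL4 from 0.716 to 5.68 FPKM in wild type, by 1.96 ± 0.19 (adjusted p = 1.54e-05). Paox, polyamine oxidase, and Atp13a2, a lysosomal polyamine exporter, fell at 24 h by 0.87 and 1.25 in wild type and by 1.02 and 1.48 in the labelled knockout (limma, adjusted p at most 5.23e-04). Amd1 has a near-identical copy and was listed near 0 in some libraries of these groups, so its values are uncertain.

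Eif5a, the translation factor that carries hypusine, a residue made from spermidine, rose from 72.0 to 271 FPKM at 10 h in wild type, by 1.90 ± 0.13 (limma, adjusted p = 2.27e-06). Of the nitric oxide list, 3 of 7 genes tested rose at 24 h in wild type, beside 50.0% of all genes called. In the labelled knockout 2 rose and 1 fell, beside 43.7%. Qdpr, which recycles the synthase cofactor tetrahydrobiopterin, rose from 10.4 to 27.0 FPKM in wild type (1.30 ± 0.12, limma, adjusted p = 1.56e-05). The neuronal synthase Nos1 was at 0 in all 12 libraries and the endothelial Nos3 at most at 0.0844 FPKM.

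The genes whose log2 levels were most like Arg1 over the 12 BMDM libraries, among 3064 genes compared, were F10 (r = 0.994), Klf9 (0.991), Nit1 (0.990), Qpct (0.989) and Retnla (0.989). These correlations describe 6 groups that share time and genotype. F10, coagulation factor X, went from 0.901 FPKM untreated to 18.4 at 10 h and 87.4 at 24 h in wild type, and to 12.8 and 33.9 in the labelled knockout. Retnla went to 7311 FPKM at 24 h in wild type and 6114 in the labelled knockout, nearer each other than the Arg1 means.

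In TAM, both arginases and Nos2 were present. Arg1 was at 37.9, 25.6, 29.6 and 88.3 FPKM in the 4 wild-type libraries (1, 2, 7 and 8) and at 3.66, 1.36, 6.55 and 3.61 in the labelled knockout ones (3 to 6). The highest labelled knockout library lay below the lowest wild-type one. The labelled knockout mean was 8.37% of wild type, and the difference of −3.21 ± 0.45 did not pass over all genes (limma, adjusted p = 0.0538). It passed at −2.84 without wild-type library 8 (adjusted p = 0.0355), and in no other fit with 1 library left out (adjusted p up to 0.191), nor with libraries 8 and 5 both left out, at −3.09 (adjusted p = 0.0557). It also passed with median-of-ratios scaling (−3.28, adjusted p = 0.0488) and when every library had to reach 1 FPKM (adjusted p = 0.0409).

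Arg2 was at 25.7, 89.0, 10.3 and 2.55 FPKM in wild type and at 58.0, 62.2, 26.0 and 14.9 in the labelled knockout. Nos2 was at 20.9, 64.6, 7.59 and 0.324 FPKM in wild type and at 29.1, 11.8, 24.2 and 8.90 in the labelled knockout. For both genes the wild-type libraries spanned the labelled knockout range, from library 8 at the bottom to library 2 at the top. The differences, 1.02 ± 0.92 for Arg2 and 0.64 ± 1.05 for Nos2, did not pass (limma, adjusted p = 0.581 and 0.778). For Nos2 the sign depended on single libraries, from −0.39 to 1.48 with 1 library left out. Without libraries 8 and 5 the differences were 0.38 for Arg2 and −0.57 for Nos2.

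Either arginase could be the higher one in TAM. Arg1 over Arg2 was 1.48, 0.288, 2.89 and 34.7 in wild type and 0.0630, 0.0220, 0.251 and 0.242 in the labelled knockout. Arg2 thus exceeded Arg1 in all 4 labelled knockout libraries and in wild-type library 2. Arg1 over Nos2 was 1.81, 0.396, 3.90 and 272 in wild type and 0.126, 0.116, 0.271 and 0.405 in the labelled knockout, so wild-type library 2 lay within the labelled knockout range.

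**Figure D3:**
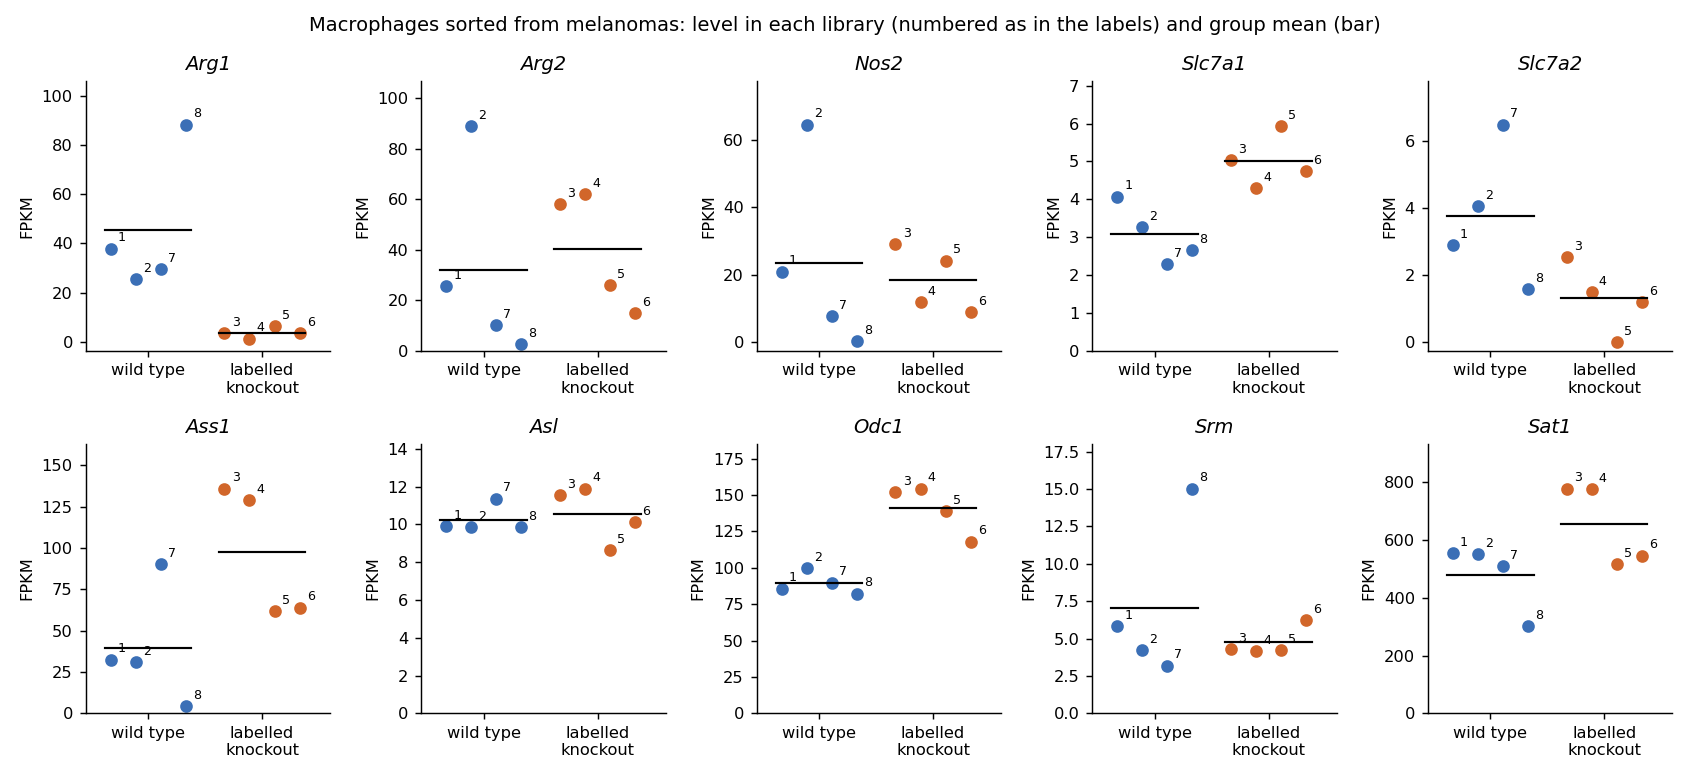
Level of each gene in FPKM (vertical axis, linear) in the wild-type and labelled knockout TAM libraries, numbered as in the labels; bars are group means. The groups do not overlap for Arg1, Slc7a1 and Odc1, and wild-type library 8 stands apart for Arg1 at 88.3 and Srm at 15.02.

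Of the importers in TAM, Slc7a1 was at 4.07, 3.27, 2.30 and 2.67 FPKM in wild type and at 5.03, 4.29, 5.94 and 4.75 in the labelled knockout. All labelled knockout libraries lay above all wild-type ones, with 1.63-fold the mean, and the difference of 0.57 ± 0.16 did not pass (limma, adjusted p = 0.161). Slc7a2 was at 2.89, 4.05, 6.48 and 1.58 FPKM in wild type and at 2.53, 1.49, 0 and 1.18 in the labelled knockout, where the value listed at 0 is that of library 5. Its groups overlapped, and the difference of −1.08 ± 0.43 did not pass (adjusted p = 0.261).

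Ass1 was at 32.6, 30.8, 90.0 and 4.25 FPKM in wild type and at 136, 129, 62.0 and 64.0 in the labelled knockout. Wild-type library 7 exceeded 2 of the labelled knockout libraries, and the difference of 1.79 ± 0.77 did not pass (limma, adjusted p = 0.289). Asl was at 9.91, 9.87, 11.4 and 9.84 FPKM in wild type and 11.5, 11.9, 8.66 and 10.1 in the labelled knockout, a difference of 0.03 ± 0.12 (adjusted p = 0.912).

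Odc1 was at 85.8, 99.9, 89.9 and 82.4 FPKM in wild type and at 152, 154, 139 and 118 in the labelled knockout. Its groups were tight and did not overlap, with means of 89.5 ± 7.60 and 141 ± 16.7 FPKM (SD, n = 4), yet the difference of 0.64 ± 0.14 did not pass over all genes (limma, adjusted p = 0.114). Srm was at 5.81, 4.25, 3.20 and 15.02 FPKM in wild type and 4.31, 4.19, 4.26 and 6.24 in the labelled knockout. Sat1 was at 554, 550, 511 and 303 FPKM in wild type and 778, 777, 517 and 546 in the labelled knockout. The groups overlapped for both Srm and Sat1, and neither passed (adjusted p = 0.7 and 0.381). Without libraries 8 and 5 the differences were 1.19 for Ass1, 0.61 for Odc1, 0.45 for Slc7a1, 0.36 for Sat1 and 0.14 for Srm, where the last is −0.30 with all libraries, and 0 of the 10 genes passed.

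In TAM, 0 of the 10 genes passed, where 0.101% of all genes tested did (limma). All labelled knockout values lay on 1 side of all wild-type values for 3 of the 10 (Arg1, Odc1 and Slc7a1), a separation seen for 12.4% of all genes tested. Of the 6 lists of other genes 0 of 35 tested passed. Smox, spermine oxidase, was at 29.2 FPKM in wild type and 60.5 in the labelled knockout (means, n = 4), a difference of 1.10 ± 0.32 (limma, adjusted p = 0.174).

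**Figure D4:**
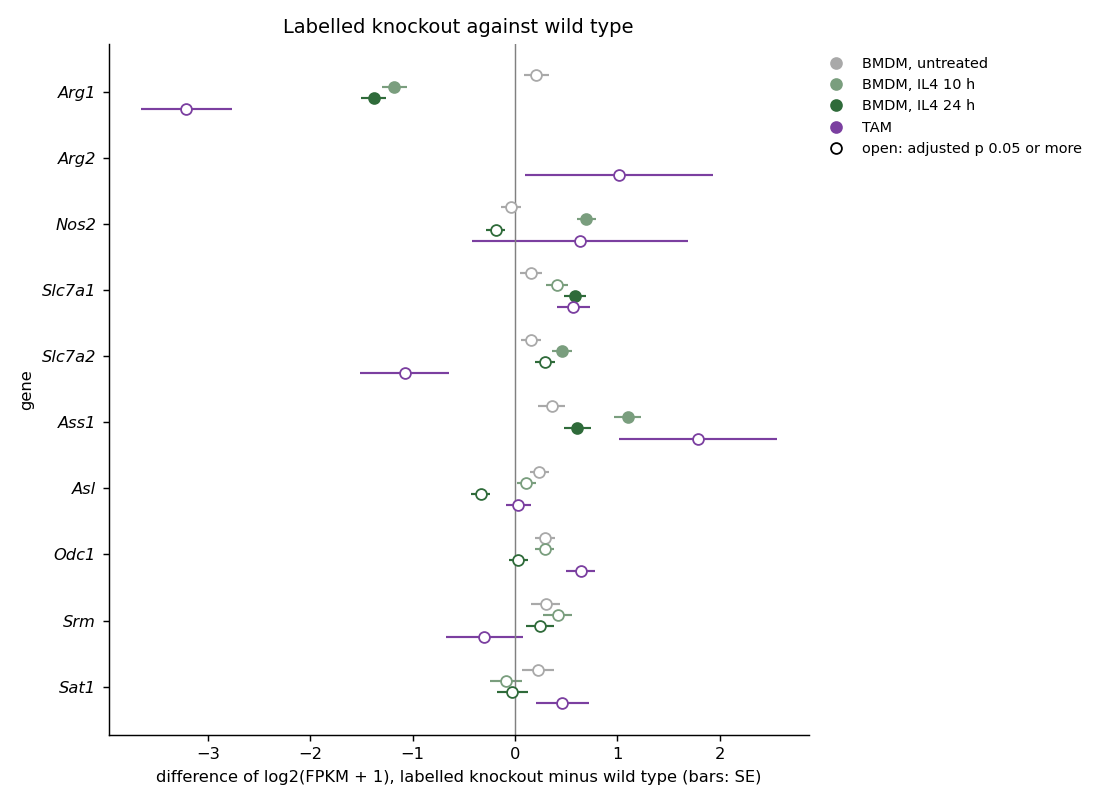
Difference of log2(FPKM + 1) between labelled knockout and wild type (horizontal axis, with SE bars) for each gene (vertical axis) in BMDM at 3 times and in TAM; open circles had an adjusted p of 0.05 or more, and Arg2 was tested in TAM alone. Arg1 lies left of 0 with IL4 and in TAM, Ass1 right of 0 throughout, and the TAM bars are wider than the BMDM ones.

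Markers of other cells varied widely between the TAM libraries. Neutrophil markers (10 of 11 matched a row, 0 of them at 0 in every library) summed to 8646, 19145, 1513 and 1149 FPKM in wild-type libraries 1, 2, 7 and 8 and to 7106, 6032, 1684 and 1236 in labelled knockout libraries 3 to 6. Library 2, highest in these markers, was also highest for Arg2 and Nos2, and library 8, lowest in them, was lowest for both. The libraries between them followed the order of the markers only in part. Libraries 1 to 4, with the higher sums, held Arg2 at 25.7 to 89.0 FPKM and Nos2 at 11.8 to 64.6. Libraries 5 to 8, with the lower sums, held Arg2 at 2.55 to 26.0 FPKM and Nos2 at 0.324 to 24.2. Within this, single libraries broke the order. Nos2 was at 24.2 FPKM in library 5 and at 11.8 in library 4, which had the higher marker sum. Arg2 was at 62.2 FPKM in library 4 and at 25.7 in library 1, again with the higher sum. For Arg1, wild-type libraries 1 and 2, with the highest marker sums, were at 37.9 and 25.6 FPKM, and wild-type libraries 7 and 8 at 29.6 and 88.3. Fibroblast markers summed to 22.4 to 243 FPKM in wild type, with library 8 highest, and to 9.11 to 27.8 in the labelled knockout. Endothelial markers summed to 5.40 to 19.5 against 20.8 to 50.6, proliferation markers to 26.2 to 55.1 against 30.2 to 125, and macrophage markers to 6000 to 7771 against 3116 to 5541 FPKM. In wild-type BMDM the endothelial list summed to 2.69 to 2.75 FPKM untreated and 16.8 to 21.2 after 24 h of IL4. The endothelial sum is therefore no sure measure of endothelial cells. The macrophage sum was mostly made of other genes than Cd68, Csf1r, Emr1 and Itgam, whose genotypes overlapped. Cd68 was at 188 to 289 FPKM in wild type against 249 to 280, and Csf1r at 295 to 462 against 300 to 327. Emr1 was at 115 to 193 against 142 to 219, and Itgam at 199 to 331 against 201 to 277. Melanoma markers summed to 3.94 to 5.92 FPKM over all 8 libraries, with Tyrp1 and Dct at 0. In each TAM group 1 of the 8 melanoma genes found was at 1 FPKM or more in every library. In BMDM, which did not come from tumours, the same genes summed to 15.8 to 31.5 FPKM. The sum is therefore no measure of melanoma cells. The part of these cells in the arginine gene values was not tested.

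**Figure D5:**
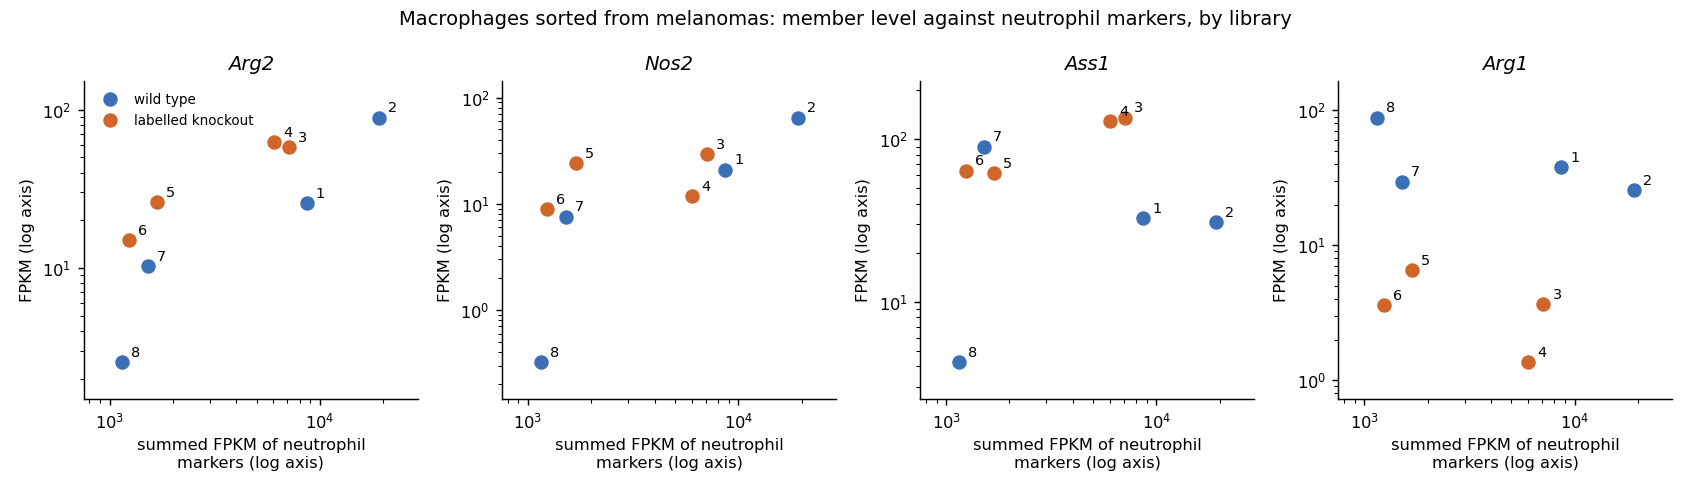
Level of Arg2, Nos2, Ass1 and Arg1 in FPKM (vertical axes, log) against the summed FPKM of neutrophil markers (horizontal axes, log) in the 8 TAM libraries, numbered as in the labels. Library 2 is at the upper right and library 8 at the lower left for Arg2 and Nos2, and the libraries between them follow the order of the markers only in part. For Arg1 the 4 wild-type points lie above the 4 labelled knockout points.

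Over the 8 TAM libraries, the genes with log2 levels most like Arg1 among 3565 compared were Myo5a (r = 0.972), Scd2 (0.956), Sh3bp5 (0.952), Abca9 (0.951) and Tmem37 (0.951). Abca9 was at a mean of 24.3 FPKM in wild type and 6.38 in the labelled knockout. Those most like Nos2 were Id2 (r = 0.977), Apbb3 (0.975), Samsn1 (0.955), Hilpda (0.952) and Tnfaip3 (0.940). These are descriptions over libraries that share genotype and cell makeup.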

How the data were processed

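RNA was measured in 12 BMDM and 8 TAM libraries. The authors deposited 1 table of FPKM values for each, per the submitters' processing notes made with TopHat and Cuffdiff on mm9. The BMDM header names FPKM, and the TAM values were taken as FPKM from those notes. No read counts enter, so depth is unknown. For the 2 duplicated symbols the row with the higher mean was kept. The values were tested as log2(FPKM + 1) with limma 3.58.1 in R 4.3.3 (trend on), over genes at 1 FPKM or more in at least 2 BMDM or 4 TAM libraries (10510 and 9897 genes). The BMDM fit used 6 groups with interactions and the TAM fit 2 groups. Benjamini-Hochberg adjusted p under 0.05 was called. The fits were tested on simulated data. Members, gene lists and tests were chosen with earlier results of these data known. All 10 members are named. Related genes named are among the 3 with the smallest p of their list in a comparison, or under 1 FPKM throughout, and likeness gives the 5 genes with the highest Pearson r; Amd1 was added after its values were seen. Alternatives were other pseudocounts, filters and scalings, a replicate block, fits on the compared libraries alone, and each library left out. They were read for the 10 members only, not for the related genes.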

Additional observations from a re-analysis of the deposited data

Results flagged for a closer look

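In TAM, 2 of 22 groups tested for a library far from the rest (10 members and Tet2, in each genotype) held one, and chance flags about 5% of groups. Asl in wild-type library 7 was at 11.4 FPKM, against 9.84 to 9.91 in the other 3. Srm in labelled knockout library 6 was at 6.24 FPKM, against 4.19 to 4.31 in the other 3. In BMDM, the Arg1 response to IL4 differed between the genotypes by the interaction test, by −1.39 at 10 h and by −1.59 at 24 h (labelled knockout minus wild type, log2 scale, limma, adjusted p = 0.0113 and 0.0034). Both interactions share the untreated libraries.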

How the results depend on the processing

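Counts of members called, with the value as reported first, changed by more than 1.5 times as follows. When every library had to reach 1 FPKM, which left 5 members to test in BMDM and 8 in TAM, IL4 calls went from 7 to 4 (10 h) and 8 to 5 (24 h) in wild type and from 9 to 5 and 7 to 4 in the labelled knockout, the wild-type 24 h against 10 h calls from 5 to 3, the genotype calls from 4 to 1 (10 h) and 3 to 1 (24 h), and the TAM calls from 0 to 1. With no filter, the 10 h interaction went from 1 to 2. With median-of-ratios scaling, the 24 h interaction went from 1 to 2 and TAM from 0 to 1, and with quantile scaling the 24 h interaction went from 1 to 2. Fits on the compared libraries alone gave 5 at 24 h and 3 for 24 h against 10 h in wild type, and 0 for genotype at 24 h. Smaller changes went both ways: median-of-ratios and quantile scaling gave 8 each for wild type at 10 h and for the labelled knockout at 24 h, 6 and 7 for wild type at 24 h against 10 h, and 4 each for genotype at 24 h. The cause was not tested beyond the smaller number of genes or libraries in these fits. With 1 library left out, calls ranged from 0 to 4 for genotype untreated, 1 to 3 for genotype at 24 h, 4 to 6 for wild type at 24 h against 10 h, 6 in every fit for the labelled knockout at 24 h, 0 to 1 for the 10 h interaction, 1 to 2 for the 24 h interaction and 0 to 1 in TAM. In BMDM these fits left 1 library in a group. The share of all genes called in each is not given here, so the counts are no result about these genes. No call reversed direction under any alternative run. Quantile scaling shifted the all-gene median after 10 h of IL4 in wild type by −0.1061. Same-numbered BMDM libraries did not deviate together (15 pairs, r from −0.141 to 0.149). With the replicate block, genotype calls at 10 h went from 4 to 3 and IL4 calls at 10 h in the labelled knockout from 9 to 8, losing Slc7a2 (adjusted p = 0.0569) and Asl (adjusted p = 0.0602). In TAM no paired analysis was possible, because its groups share no replicate numbers. With 2 libraries a group and no read counts, levels under 1 FPKM (Arg2, Nos2 and untreated Slc7a1, Slc7a2 and Ass1 in BMDM) are the least certain, and 250 promoter bases could be read for 4 members only.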

Other observations

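The balance of the citrulline route within a library differed between the tables. Ass1 over Asl was 0.0324 and 0.0147 in untreated wild-type BMDM, 0.09998 and 0.105 after 24 h of IL4, and 0.218 and 0.226 in the labelled knockout after 24 h. In TAM the same ratio was 3.29, 3.12, 7.92 and 0.432 in wild-type libraries 1, 2, 7 and 8 and 11.8, 10.9, 7.15 and 6.32 in labelled knockout libraries 3 to 6. Asl thus exceeded Ass1 in every BMDM library and in 1 TAM library, wild-type library 8. The tables differ in library preparation, so no test was made between them.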
